A study of Mus musculus with 6 samples.

Results

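The Schlafen genes of the mouse, a family induced by interferon and by microbial products, were followed in MuTuDC1940 cells without and with poly(I:C). The 7 genes described, Slfn1, Slfn2, Slfn3, Slfn4, Slfn5, Slfn8 and Slfn9, were named one by one for this purpose, after their rise in these data was known, and stand among 32903 gene symbols of the deposited table. MuTuDC1940 is an established mouse dendritic cell line, derived from a spleen tumour of a mouse carrying a viral large T antigen, so its cells divide without end, and it resembles type 1 conventional dendritic cells. Poly(I:C), a double-stranded RNA made by synthesis, is sensed as if it came from a virus. The untreated group received nothing, and the treated group had 18 hours of poly(I:C) at 5 µg/ml; both groups are the same unmodified line. The series has 3 samples per group, and 2 libraries per group are used here, those headed NT01 and NT02 (untreated) and PolyIC01 and PolyIC02 (treated), because the header of the table does not settle which samples the other 2 columns are. Values are TPM, in which each library sums to 1000000, a level already divided by transcript length, so that levels of different genes can be set side by side. TPM does not carry the number of reads, so the sequencing depth is unknown here and values come without counting intervals.

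Schlafen proteins share an N-terminal core that resembles RNA-cutting enzymes. They come in 3 sizes: short forms made of little more than the core (Slfn1, Slfn2), intermediate forms (Slfn3, Slfn4), and long forms that also carry a helicase-like part (Slfn5, Slfn8, Slfn9, Slfn14). The family is known for holding immune cells in a resting state, which mice with a defective Slfn2 cannot do, and for binding or cutting transfer RNA. Human SLFN11, a long form related to mouse Slfn8 and Slfn9, cuts transfer RNA during virus infection and acts on stalled replication forks.

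The identity of the cells was checked against markers. All 10 markers of type 1 conventional dendritic cells passed the expression limit of a mean of 0.5 TPM over the 4 libraries, with Irf8, which sets up the lineage, at 2477 to 2639 TPM; Itgae was the lowest, at 0.490 to 0.918 TPM. Of these markers 4 rose, 4 fell and 2 did not pass at an adjusted p under 0.05 in limma, where 28.4% of all genes tested rose and 32.4% fell. Their sum was 4067 to 4120 TPM in the untreated and 3953 to 4029 TPM in the treated libraries. Irf8 made up most of this sum, so it says little of the other markers. In the mean, Xcr1 rose from 192 to 331 TPM, while Cd24a fell from 382 to 142 TPM and Tlr3 from 253 to 144 TPM. The summed level of 5 fibroblast markers was 0.120 to 0.168 TPM in the untreated and 0.163 to 0.191 TPM in the treated libraries, with Col1a2, Col3a1, Pdgfra and Dcn listed at 0. Of 4 NK cell markers none reached the limit, Ncr1 was listed at 0, and the sum was at most 0.170 TPM in any library. Of the T cell markers Cd3e and Cd3g were listed at 0, the summed level was 0.881 to 1.22 TPM in the untreated and 1.68 to 1.82 TPM in the treated libraries, and Cd3d, the only one tested, rose. The sum of 5 B cell markers was 3.36 to 3.79 TPM in the untreated and 5.89 to 7.05 TPM in the treated libraries. Macrophage and monocyte markers summed to 515 to 517 TPM in the untreated and 526 to 546 TPM in the treated libraries. Of 8 such markers 6 were tested, of which 3 rose, 1 fell and 2 did not pass, beside the same shares over all genes. Of those that rose, Fcgr1, an antibody receptor gene, was tested only through the treated libraries (0.356 and 0.299 TPM without and 4.76 and 4.66 TPM with poly(I:C)). None of the 8 was listed at 0 in all 4 libraries. Whether any such other cells were present in this line, and what part they would have in the Schlafen levels, was not tested. In bulk RNA a change in the number of cells of a type and a change in RNA per cell cannot be told apart.

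The Schlafen genes lie in 1 cluster on chromosome 11 that spans 335 kb, from 82951349 to 83286726 (GRCm38.p6, RefSeq annotation). In order along the chromosome they are Slfn5 (82951349 to 82964850), Slfn9 (82974316 to 82991830), Slfn8 (83002125 to 83020810), the pseudogene Slfn10-ps (83028123 to 83040533), Slfn2 (83065112 to 83070678), Slfn1 (83116820 to 83122670), Slfn4 (83175172 to 83190216), Slfn3 (83191330 to 83215154) and Slfn14 (83275110 to 83286726). Slfn8, Slfn9 and Slfn14 are read from the reverse strand, and Slfn1 to Slfn5 from the forward strand. The longest coding sequences in the GENCODE M21 annotation follow the 3 sizes, with 1011 bases for Slfn1 and 1134 for Slfn2, 1920 for Slfn3 and 1806 for Slfn4, and 2652 for Slfn5 and 2730 for both Slfn8 and Slfn9. Slfn8 and Slfn9 were identical at 92.7% of aligned coding bases and Slfn3 and Slfn4 at 92.3%. The short and intermediate genes (Slfn1 to Slfn4) were otherwise 71.3% to 75.3% identical to each other, and every pair that joins one of them to Slfn5, Slfn8 or Slfn9, or joins Slfn5 to either of the latter, stood at 57.6% to 65.5%.

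The promoters were searched for letters that the genes share. All 7 matched the RefSeq promoter table (GRCm38.p6, windows of 250 bases before to 50 after the start site). The promoters of Slfn1, Slfn2, Slfn3 and Slfn4 share a word of 9 bases, ACTTCCTGG, the longest that all 4 hold on the same strand, at 34 to 74 bases before the start site. It includes the TTCC core to which ETS factors such as PU.1 of myeloid cells bind. This core by itself also stands in the windows of Slfn5, Slfn8 and Slfn9, from which the word was not built. The word was chosen after the promoters had been seen, and 0.999% of the 27025 genes of the table, and 1.06% of the 10011 of them that were tested, hold it on either strand. In the following 60 bases it stands in capitals, 5′ to 3′ on the forward strand, at chr11:83116720-83116779, chr11:83065031-83065090, chr11:83191262-83191321 and chr11:83175087-83175146. They are shown so that the bases around the word can be compared between the 4 genes.
Slfn1: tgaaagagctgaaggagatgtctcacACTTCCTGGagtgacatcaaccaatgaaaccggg
Slfn2: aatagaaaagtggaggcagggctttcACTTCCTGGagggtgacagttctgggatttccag
Slfn3: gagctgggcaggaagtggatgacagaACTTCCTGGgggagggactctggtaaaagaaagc
Slfn4: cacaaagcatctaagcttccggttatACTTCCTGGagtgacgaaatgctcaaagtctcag

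The promoters of Slfn5, Slfn8 and Slfn9 hold GAAA, any 2 bases and GAAA again. These letters are the core of the interferon-stimulated response element, on which STAT and IRF factors bind. This motif was searched on both strands and is held by 3.99% of all genes of the promoter table and 4.14% of those tested. It lies 155 to 146 bases before the start site used for Slfn5, where it leads into a run of A. The window of Slfn5 begins at 82951852, inside the annotated gene, which itself begins upstream at 82951349. In Slfn8 it lies at 48 to 39 and in Slfn9 at 45 to 36 bases before the start site, on the opposite strand, so that it reads TTTCGTTTTC. RefSeq gives Slfn8 another start site as well, and the same match lies 136 to 127 bases before that one. The promoters of Slfn8 and Slfn9 were 84.9% identical, against 51.9% to 67.3% for the other 20 pairs. Slfn3 and Slfn4, alike in coding sequence, were 55.0% identical there, and Slfn2 and Slfn8, of different sizes, 67.2%. Only aligned bases count here, 152 to 292 per pair. The identity of unrelated promoters is not given, so values other than that of Slfn8 and Slfn9 show no kinship. The 60 bases around each match, with the match in capitals and each sequence 5′ to 3′ on its gene's own strand, are at chr11:82951922-82951981 (forward), chr11:83020824-83020883 (reverse) and chr11:82991841-82991900 (reverse).
Slfn5: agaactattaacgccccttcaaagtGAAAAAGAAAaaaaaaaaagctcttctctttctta
Slfn8: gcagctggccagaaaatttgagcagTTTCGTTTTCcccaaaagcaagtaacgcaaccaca
Slfn9: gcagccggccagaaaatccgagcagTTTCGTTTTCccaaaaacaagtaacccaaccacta

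None of the promoters of Slfn1 to Slfn4 holds this core motif in its window, which says only that these letters are not in it. The full window of Slfn1, the gene with the largest difference of the family, is given for reference (chr11:83116570-83116869, forward strand, 5′ to 3′), with ACTTCCTGG in capitals.
Slfn1: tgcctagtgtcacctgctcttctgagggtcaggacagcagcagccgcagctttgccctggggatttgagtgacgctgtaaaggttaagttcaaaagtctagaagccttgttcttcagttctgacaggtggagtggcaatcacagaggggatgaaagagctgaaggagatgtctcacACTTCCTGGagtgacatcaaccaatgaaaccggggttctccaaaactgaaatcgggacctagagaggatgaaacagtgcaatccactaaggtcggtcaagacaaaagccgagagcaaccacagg

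A STAT motif, TTCNNNGAA, which reads the same on both strands, was in none of the 7 promoters and in 8.15% of those of tested genes. GGG, any 5 bases and CC, a loose form of the NF-kB motif searched on both strands, was in those of Slfn1 and Slfn9 and in 69.5% of those of tested genes. A match is a description of the sequence and shows no binding.

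All 7 genes were higher in both treated libraries than in both untreated ones, and for all the log2(TPM + 1) difference amounted to at least 2-fold. Over the 12520 genes that passed the expression limit, treated and untreated libraries did not overlap and were higher with poly(I:C) for 38.9%, and 5.75% were at least 2-fold higher. The median difference on the log2(TPM + 1) scale was 2.56 over the 7 genes and -0.02 over all genes tested. Since the genes were chosen on this contrast, these counts describe them, and no test of them is given. Without poly(I:C) neither Slfn1 nor Slfn4 came to 0.5 TPM in any library, and they reached the expression limit only through the treated ones, so they had to differ in order to be among the genes tested; the other 5 were above it in every library. Nothing in the labels tells whether a group's samples were separate cultures, so p-values below speak only of how far these libraries vary, which could be technical variation.

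**Figure D1:**
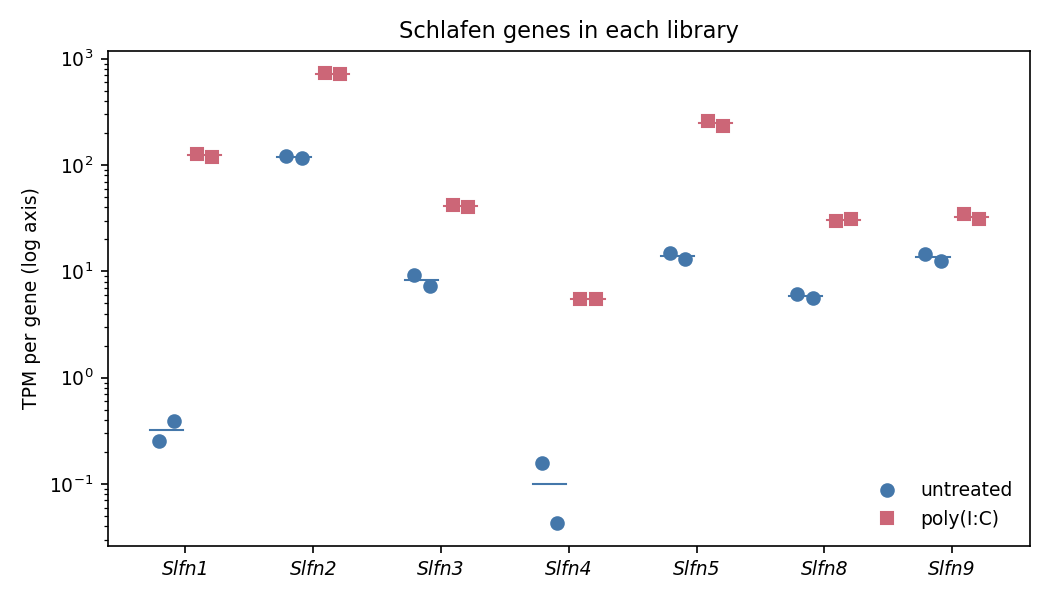
TPM of each Schlafen gene (log axis) in the 2 untreated (circles) and 2 poly(I:C) libraries (squares); short lines are group means. For each gene both treated points lie above both untreated points, and Slfn1 moves from 0.323 TPM to 123 TPM in the mean.

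Among the short forms, Slfn1 went from a level near the bottom of the family to the third highest. Slfn1, whose forced expression is known to stop the growth of thymocytes, stood at 0.252 TPM in NT01, 0.394 TPM in NT02, 127 TPM in PolyIC01 and then 119 TPM in PolyIC02. The untreated level lay above that of 1.21% of the genes tested. The means were 0.323 ± 0.10 and 123 ± 5.59 TPM (SD, n = 2 libraries per group here and throughout), a ratio of 380 that ranged from 302 to 503 over the 4 pairs of libraries. The difference was 6.55 on the log2(TPM + 1) scale, the 2nd largest of all genes tested. The ratio rests on untreated levels near the bottom of the tested range, whose counting error is unknown.

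Slfn2 was the most abundant Schlafen gene under both conditions. Its product, needed for T cells to stay at rest, also shields transfer RNA from cleavage. Slfn2 read 122 and 117 TPM without poly(I:C) and 730 and 716 TPM with it. This is a ratio of 6.06 (119 ± 3.45 to 723 ± 10 TPM) and a difference of 2.59 on the log2(TPM + 1) scale. In untreated cells 89.3% of the genes tested had a lower level. In the treated libraries it was the 184th and 187th most abundant gene of the 32903 symbols. The gain of 604 TPM made up 57.9% of the summed gain of the 7 genes, although 3 of them had larger ratios.

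The intermediate forms are near copies in sequence and stood far apart in level. Slfn3, studied in regulatory T cells and gut epithelium, read 9.29 and 7.35 TPM without poly(I:C) and 42.1 and 40.3 TPM with it. Its mean went from 8.32 ± 1.38 to 41.2 ± 1.25 TPM, a ratio of 4.95 and a difference of 2.19 on the log2(TPM + 1) scale. Slfn4, known from activated macrophages and other myeloid cells, was at 0.158 and 0.0428 TPM without and 5.45 and 5.54 TPM with poly(I:C). Its mean went from 0.101 ± 0.0817 to 5.50 ± 0.0667 TPM. The ratio of 54.7 ranged from 34.4 to 129 over the pairs of libraries, since NT01 and NT02 differ by more than the treated libraries do. The difference on the log2(TPM + 1) scale, 2.56, was close to that of Slfn2, whose ratio is far smaller, because adding 1 TPM dampens the change of a low gene. Among macrophage and monocyte markers, C1qa rose from 37.0 ± 0.257 to 171 ± 4.54 TPM and Lyz2 fell from 218 ± 0.634 to 103 ± 5.90 TPM. Whether the level of Slfn4 moves with these markers was not tested.

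Among the long forms the differences spread from the 2nd largest of the family to the smallest. Slfn5, a nuclear protein whose human counterpart can hold back interferon-driven transcription, read 14.9 and 13.2 TPM without poly(I:C) and 262 and 235 TPM with it. Its mean went from 14 ± 1.14 to 248 ± 19.1 TPM, a ratio of 17.7 and a difference of 4.05 on the log2(TPM + 1) scale. Slfn8 was at 6.09 and 5.64 TPM without and 30 and 31.1 TPM with poly(I:C), a ratio of 5.20 (5.87 ± 0.318 to 30.5 ± 0.721 TPM) and a difference of 2.2. Slfn9, its neighbour and near copy, was at 14.5 and 12.6 TPM without and 34.5 and 30.9 TPM with poly(I:C), a ratio of 2.41 (13.6 ± 1.31 to 32.7 ± 2.53 TPM) and a difference of 1.21. Without poly(I:C) both libraries of Slfn9 lay above both of Slfn8, while with poly(I:C) the values of these genes overlapped. The ratios over pairs of libraries stood apart, at 4.93 to 5.50 for Slfn8 and 2.14 to 2.73 for Slfn9. Nearly all of the TPM of Slfn9 (97.0% to 99.8%) stood on a predicted transcript. Slfn8 and Slfn9 also share sequence, as given below, so the split of TPM between them is uncertain.

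The order of levels in untreated cells was Slfn2, Slfn5, Slfn9, Slfn3, Slfn8, Slfn1 and Slfn4. Slfn5 and Slfn9 overlapped there, and the other neighbours in the order did not. With poly(I:C) the order was Slfn2, Slfn5, Slfn1, Slfn3, Slfn9, Slfn8 and Slfn4, and only Slfn9 and Slfn8 overlapped. The 7 genes summed to 167 and 156 TPM without poly(I:C) and to 1231 and 1177 TPM with it, 7.45 times as much in the mean. Slfn2 held 73.9% ± 1.33 of that sum without and 60.1% ± 1.05 with poly(I:C). Slfn5 went from 8.69% ± 0.298 to 20.6% ± 0.939 and Slfn1 from 0.201% ± 0.0715 to 10.2% ± 0.146. Slfn9 went from 8.39% ± 0.42 to 2.72% ± 0.125, although its own level was higher with poly(I:C). Slfn3 (5.14% to 3.42%) and Slfn8 (3.63% to 2.54%) also held less of the sum in the treated libraries, and Slfn4 stayed under 0.50% in all 4.

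**Figure D2:**
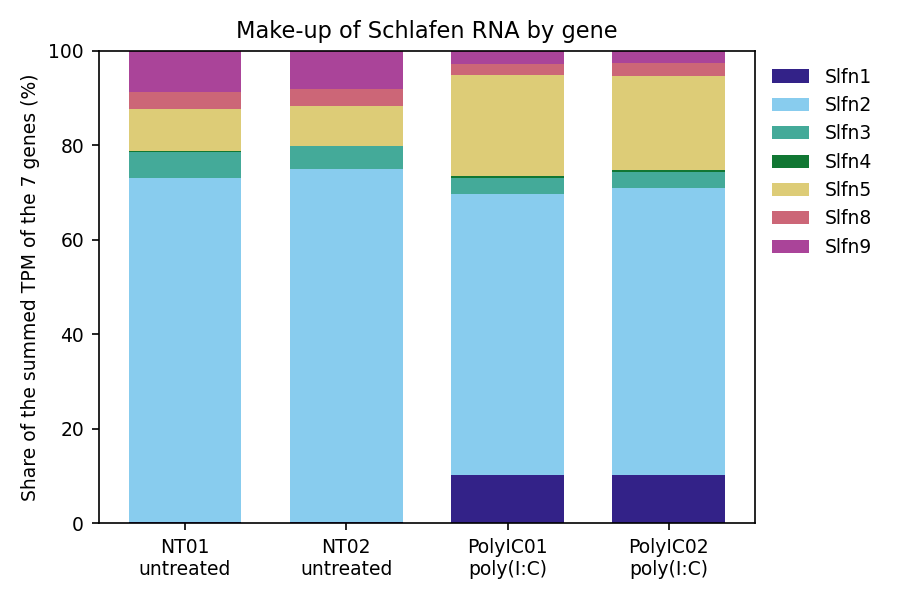
Share of the summed TPM of the 7 Schlafen genes (percent, bars from 0 to 100) held by each gene in the 4 libraries. Slfn2 holds most of every bar, Slfn1 and Slfn5 take a larger share in the treated libraries, and Slfn9 a smaller one.

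Other Schlafen genes of the table were looked up by name. The pseudogene Slfn10-ps, which lies between Slfn8 and Slfn2, rose from 2.19 ± 0.0507 to 12.8 ± 1.35 TPM, a ratio of 5.85 (log2 difference 2.11, SE 0.094, adjusted p = 2.27e-05 in limma). Slfn14, a long form known from platelets and reticulocytes, was at or under 0.0238 TPM in every library, and Slfnl1, a more distant relative on chromosome 4, at or under 0.110 TPM, so neither was tested. Slfn5os, an RNA antisense to Slfn5, rose from 0.164 ± 0.0277 to 1.60 ± 0.0588 TPM (log2 difference 1.16, adjusted p = 0.000194 in limma). Slfn5os was under 0.5 TPM in both untreated libraries and was tested only through the treated ones. Use of strand in making the TPM is not given in the sources used. Reads of Slfn5 and Slfn5os may therefore have been mixed.

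Since the genes are alike, the words of 31 bases that their GENCODE M21 transcripts have in common were counted, on either strand. This is the default word length of kallisto, the quantification tool among the submitters' processing notes; the length behind the deposited table is not known here. Slfn5 shared none with the Schlafen genes Slfn1 to Slfn4, Slfn8, Slfn9, Slfn10-ps and Slfn14, and 13.4% with other genes, most often Slfn5os. Slfn1 shared 1.96% of its words and Slfn2 8.14% with other Schlafen genes. Slfn3 shared 15.9%, mostly with Slfn4, and Slfn4 15.3%, mostly with Slfn3. The share was highest in Slfn8 (26.7%), Slfn9 (19.8%) and Slfn10-ps (32.4%), which share with one another. Slfn3 also shared 19.8% and Slfn4 10.1% of their words with genes outside these 9, most often the cluster's pseudogene Gm11427, for which no transcript of the table was matched. Words shared within the family make the split of TPM between Slfn3 and Slfn4, and among Slfn8, Slfn9 and Slfn10-ps, less certain. They touch the levels of Slfn1, Slfn2 and Slfn5 less, but the words Slfn5 shares with Slfn5os lie outside this measure. Slfn4 also shared 2.86% of its words with Slfn2, which was far more abundant (723 against 5.50 TPM in the treated mean). How far shared words affect the values was not tested. The words counted are those of GENCODE transcripts, while the deposited values are for RefSeq transcripts.

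**Figure D3:**
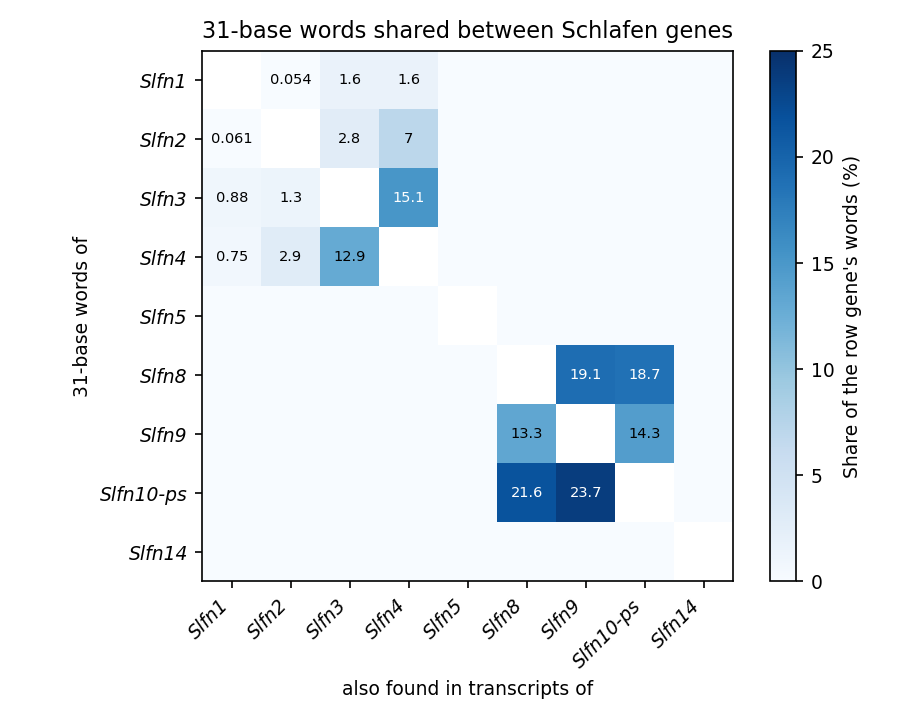
Share (percent) of the distinct 31-base words of each row gene's transcripts that also occur, on either strand, in transcripts of the column gene. Words are shared within Slfn1 to Slfn4 and within Slfn8, Slfn9 and Slfn10-ps; Slfn5 and Slfn14 share none with the others shown.

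Transcripts add detail to 4 genes. Slfn1, Slfn2 and Slfn3 have 1 RefSeq transcript each in the table. For Slfn5 the curated transcript held 63.1% and 66.7% of the gene's TPM in the untreated and 73.3% and 74.0% in the treated libraries. A predicted transcript of Slfn5 held most of the rest, at 36.5% and 30.7% without and 23.3% and 23.1% with poly(I:C). For Slfn8 the same curated transcript held 91.6% to 99.1% in all 4 libraries. For Slfn9 nearly all of the TPM, 97.0% to 99.8%, stood on a predicted transcript, and the curated one was at 0.125 and 0.0280 TPM without and 1.02 and 0.633 TPM with poly(I:C). With curated transcripts alone, Slfn9 therefore fell under the expression limit. The TPM of Slfn4 was spread over 6 transcripts, and the treated libraries differed in the split. One predicted transcript of Slfn4 held 1.04% in PolyIC01 and 27.4% in PolyIC02, while the summed level of the gene was nearly equal in both.

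The cluster was then set against its neighbours. Inside it, the non-coding genes Gm20234, which lies within Slfn2, and Gm38922, beside Slfn1, rose, from 1.27 ± 0.402 to 6.83 ± 1.07 TPM and from 0.0122 ± 0.0172 to 1.84 ± 0.0991 TPM. AI662270, between Slfn3 and Slfn14, was abundant in untreated cells and rose less, from 296 ± 7.38 to 373 ± 4.0 TPM (log2 difference 0.33). All 3 were chosen by position after their values were seen, and Gm38922 was tested only through the treated libraries. Gm20234 overlaps Slfn2, and their reads may be shared.

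In the 500 kb on either side of the cluster 19 genes were tested, of which 7 rose, 3 fell and 9 did not pass; the median log2 difference was 0.13. Over all genes tested, 28.4% rose and 32.4% fell at an adjusted p under 0.05 in limma. On the side of Slfn5, none of Cct6b, Zfp830, Gm11423, Rffl and Rad51d passed, and the DNA repair gene Lig3 (16.2 ± 0.823 to 12.5 ± 0.231 TPM) and the ribosome assembly gene Nle1 (21.7 ± 0.0248 to 16.9 ± 1.84 TPM) fell. On the side of Slfn14, Ap2b1, a subunit of the clathrin adaptor, rose (101 ± 1.16 to 167 ± 5.68 TPM), and AA465934, AI450353 and Taf15 did not pass. The chemokine genes farther out on that side moved in both directions. Ccl5 went from 5.31 ± 0.129 to 865 ± 8.67 TPM (log2 difference 7.10), Ccl4 from 1.32 ± 0.170 to 31.8 ± 0.143 TPM (3.82), Ccl3 from 5.15 ± 0.933 to 30.8 ± 2.32 TPM (2.38) and Ccl9 from 0.199 ± 0.0582 to 0.876 ± 0.0447 TPM (0.65). Ccl6 fell from 7.97 ± 0.177 to 3.54 ± 0.428 TPM (-0.99). E230016K23Rik (0.40) and Wfdc17 (0.36) rose and Heatr6 did not pass. The number that rose was 4 without PolyIC01, and Ccl9 was tested only through the treated libraries.

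**Figure D4:**
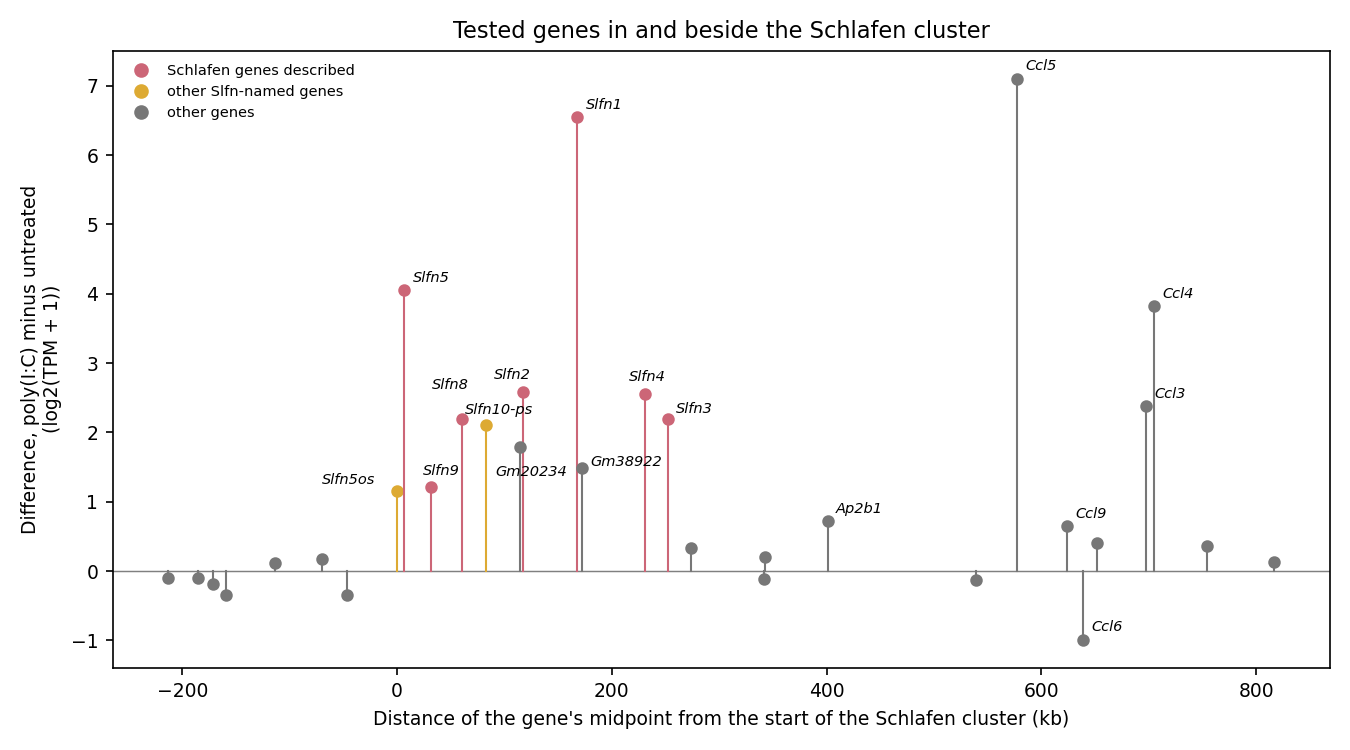
Difference between poly(I:C) and untreated libraries (log2(TPM + 1)) of each tested gene in and within 500 kb of the Schlafen cluster, by the distance of its midpoint from the start of the cluster (kb). The Schlafen genes described stand between 1.21 and 6.55, and Ccl5, Ccl4 and Ccl3 form another high group at the right.

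Interferon genes and genes of processes linked to Schlafen proteins, replication stress by way of human SLFN11, were counted in the same fit. The counts stand against the 28.4% that rose and 32.4% that fell among all genes. Interferon signalling, the route from the interferon receptor to the STAT and IRF factors, had 13 tested genes, of which 9 rose, 1 fell and 3 did not pass (median log2 difference 0.64). The transcription factor genes Stat2 and Irf9 rose, Stat2 from 50.1 ± 4.38 to 204 ± 10.6 TPM and Irf9 from 99.2 ± 2.84 to 142 ± 0.952 TPM. Of the receptor chains, Ifnar1 rose from 63.2 ± 1.10 to 77.6 ± 1.68 TPM, while Ifnar2 was at 57.3 ± 1.39 and 54.2 ± 0.0806 TPM and did not pass. Irf7 (log2 difference 5.03), tested only through the treated libraries, and Usp18 (2.91), which damps the receptor, had the largest differences of the list. The only fall was that of the kinase gene Tyk2 (-0.16, adjusted p = 0.0499 in limma), named after its value was seen, and this call was lost under 7 of the 11 alternative settings.

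All 22 interferon-induced antiviral effector genes rose, 21 of them at least 2-fold, with a median log2 difference of 2.87 beside the 2.56 of the Schlafen genes. The largest differences were those of the RNA-binding genes Ifit3 (5.47) and Ifit1 (4.51), of Oasl2 (4.38) and of Rsad2 (3.73), whose product makes an antiviral nucleotide.

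Regulators of quiescence, the resting state that Slfn2 is needed for, moved both ways: 12 were tested, 6 rose, 4 fell and 2 did not pass (median 0.12). The anti-proliferative gene Btg1 rose from 36.1 ± 0.324 to 210 ± 5.29 TPM and the cell cycle inhibitor gene Cdkn1b from 32.8 ± 0.0979 to 55.6 ± 0.413 TPM. The transcription factor genes Klf4 (17.9 ± 0.198 to 6.80 ± 0.361 TPM) and Foxp1 (4.04 ± 0.295 to 2.60 ± 0.237 TPM) fell.

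Of 14 tested genes of transfer RNA cleavage and processing, 3 rose, 8 fell and 3 did not pass (median -0.22). Rnh1, the inhibitor of the ribonuclease angiogenin, rose from 281 ± 2.15 to 439 ± 15.8 TPM; the number that rose was 1 without PolyIC01. Tsen15 (-0.61), a gene of the tRNA splicing endonuclease, fell. Of 12 tested genes of the response to stalled ribosomes 6 rose and none fell in limma (1 at an unadjusted p under 0.05), while 6 did not pass (median 0.07). They were led by Ascc3 (10.1 ± 0.875 to 22.3 ± 0.257 TPM), a helicase gene, Gtpbp2 (0.55), Ascc2 (0.32) and Atf4 (0.31). The replication stress response had 16 tested genes, with 2 that rose, 10 that fell and 4 that did not pass (median -0.21). Clspn, which helps to activate the checkpoint kinase CHK1, fell from 42.1 ± 2.06 to 17.5 ± 0.455 TPM, and Rpa3 (-0.75), a subunit of the protein that coats single-stranded DNA, and Tipin (-0.60) fell too. Timeless, the partner of Tipin at the replication fork, rose from 90.3 ± 3.93 to 163 ± 4.45 TPM.

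**Figure D5:**
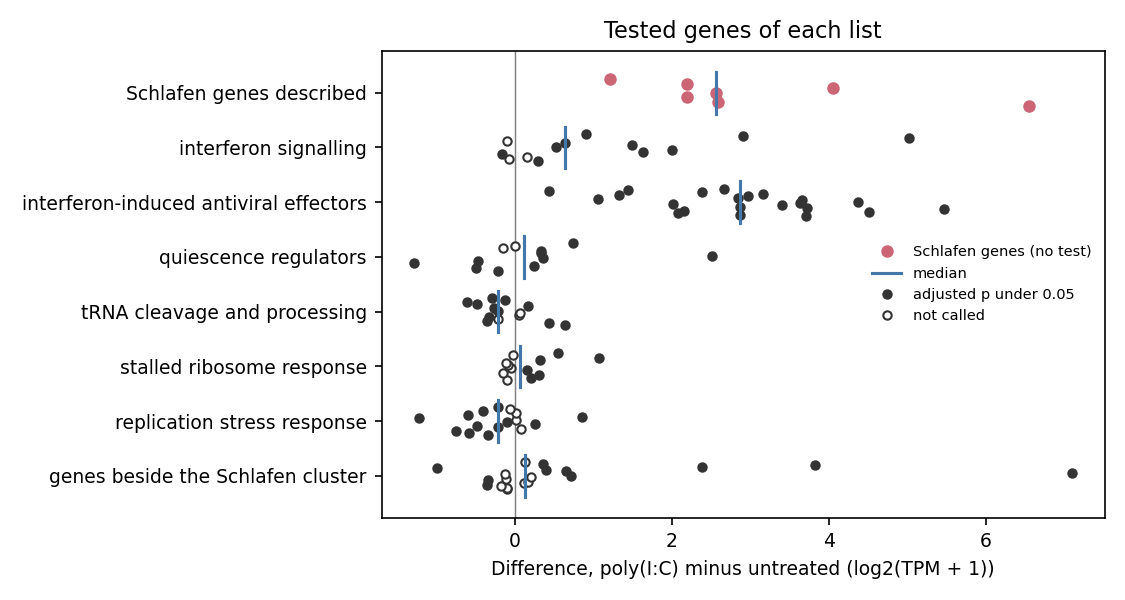
Difference between poly(I:C) and untreated libraries (log2(TPM + 1)) of the 7 Schlafen genes and of each tested gene of the 7 lists; filled points passed at an adjusted p under 0.05 in limma, open points did not, and the vertical bars are medians. The medians are 2.56 for the Schlafen genes and 2.87 for the interferon-induced antiviral effectors, and between -0.22 and 0.64 for the other lists.

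Finally, the genes outside the family with the most similar values were found, by the Euclidean distance of log2(TPM + 1) over the 4 libraries. For Slfn1 they were Acod1, at a distance of 0.96, Tgtp1 and Rtp4, and each of these had a higher untreated level than Slfn1. Slfn2 was closest to Lilrb4a (0.273), Bcl2a1b and Ifitm2, and Slfn3 to Ifit2 (0.120), Mx2 and Tnfaip3. Ifit2 was at 9.10 and 7.86 TPM without and 40.2 and 41.7 TPM with poly(I:C), beside 9.29, 7.35, 42.1 and 40.3 TPM for Slfn3. Slfn4 was closest to Ddx60 (0.163), C3 and Gbp7. Slfn5 was closest to Oasl2 (0.384), Zbp1 and Apol7c, the gene named in the title of the series, which was at 10.8 and 10.1 TPM without and 318 and 309 TPM with poly(I:C). Slfn8 was closest to LOC108167387 (0.297), Ccl3 and Cd4, and Slfn9 to Map3k8 (0.106), Gca and Dnd1. With 2 libraries per group this likeness reflects little more than the level in each group.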

How the data were processed

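Polyadenylated RNA was made into stranded libraries, per the labels' protocols, and the submitters' processing notes name the tools kallisto 0.42.4 and bcl2fastq 2.20.0.422 and, as genome build, GRCm38, without saying what each was used for. The table deposited by the authors is named as FPKM, but each column used sums to 1000000, so the values are treated as TPM of RefSeq transcripts. The header names 5 samples over 6 columns of values and is blank next to NT01; the 4 columns whose group is the same under either reading were used, and the other 2 value columns were set aside. Of 107384 transcripts, 86722 (80.8%) were given a symbol from RefSeq's gene list (GRCm38.p6), versions ignored, and were summed per gene; these make up 91.8% to 92.2% of the TPM of a library. The rest were dropped.

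The 12520 genes whose mean over the 4 libraries reached 0.5 TPM were compared on log2(TPM + 1) with limma 3.58.1 in R 4.3.3 (trend, robust), with Benjamini-Hochberg adjustment over all of them. Rose and fell refer to an adjusted p under 0.05; a scale of log2(TPM + 1) understates changes of low genes, and a ratio is one of mean TPM. The fit was also run on simulated data, with changes set only in genes whose untreated level was above the expression limit. That run does not speak of genes as low as Slfn1 and Slfn4 without poly(I:C). Sequence counts used Python 3.11.15, pandas 2.3.3 and Biopython 1.88. Alternatives changed the pseudocount, the filter, the scaling, the moderation, the transcripts summed and the libraries. The members and lists were chosen with earlier results of these data known. Genes named are every Schlafen gene, up to 4 called genes per list with the largest difference, Stat2, Irf9, Ifnar1 and Ifnar2, every tested gene beside the cluster and the 3 nearest genes per member. Outside this rule, and chosen after their values were seen, are Tyk2, the genes inside the cluster, and the markers given as listed at 0 or as the highest and lowest of their list. Protein sequences were not used here, and some genes that the rule names are not reported here.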

Additional observations from a re-analysis of the deposited data

How the results depend on the processing

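The 7 Schlafen genes were higher with poly(I:C) by at least 2-fold on the log2 scale under every setting run except curated transcripts alone. There 6 could be counted, Slfn9 being under the expression limit. Filters and moderation do not enter a gene's log2 difference. The genes were chosen on this contrast, so this count only describes them. Their log2 differences ranged over all settings from 6.47 to 8.20 for Slfn1, 2.56 to 2.62 for Slfn2, 2.04 to 2.34 for Slfn3, 1.60 to 4.86 for Slfn4, 3.97 to 4.18 for Slfn5, 2.15 to 2.36 for Slfn8 and 1.12 to 1.30 for Slfn9. The highest values of Slfn1 and Slfn4 came from a pseudocount of 0.1 TPM, and the lowest of Slfn4 from curated transcripts alone. The number of interferon signalling genes that fell went from 1 to 0 with a pseudocount of 0.1 or 0.5 TPM, with no filter, in limma without trend or robust moderation, and with curated transcripts alone, and was 0 to 1 when each library was left out in turn (0 without NT01 and without PolyIC02). With curated transcripts alone 2 quiescence genes fell, against 4, and 1 gene of the stalled ribosome response fell, against 0. Leaving out each library in turn gave 1 to 3 tRNA genes that rose and 4 to 9 genes beside the cluster that rose, the lowest both times without PolyIC01. The cause of these changes was not tested. Of the counts recomputed under alternatives, 176 were equal to the reported one or within 1.5 times of it, and 11 were not. The 176 include the count of the Schlafen genes, chosen on this contrast, and counts of 0 that stayed 0. No paired analysis was possible because the header of the table does not settle the replicate numbers of the columns after NT01. Depth is unknown, so the counting error of values under 0.5 TPM, such as Slfn1 and Slfn4 without poly(I:C), cannot be given. With 2 libraries per group the SD itself is poorly known.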
